A study of Homo sapiens with 4 samples.

Results

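RNA of DLD-1 spheroids was compared with that of HCEC-1CT spheroids, using 2 of the 4 libraries of a study that grew 4 human colon cell lines in 3 dimensions. DLD-1 is an established colorectal adenocarcinoma line, labelled as colon cancer. HCEC-1CT, labelled as colon, derives from normal colon tissue and was immortalised by CDK4 and TERT. HCT116, a colorectal carcinoma line, and SW620, from a lymph node metastasis of a colorectal cancer, were used to see which differences were shared. All 4 lines are labelled as epithelial cells of wild-type genotype and the labels name no allele or treatment. Each was seeded in low-attachment plates in medium with 10% fetal bovine serum and kept for 7 days, after which compact spheroids were picked and RNA was pooled from 2 plates of 24 wells. Each line has 1 library, so the values below are effect sizes with no p-value, and the spread between cultures of a line is unknown. All values are FPKM, fragments scaled to transcript length and to library size, and ratios are log2 ratios of FPKM + 1 over HCEC-1CT.

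The colon epithelium is renewed from crypt stem cells that are kept dividing by Wnt signalling. Their daughters become absorptive colonocytes, which carry brush border and ion transport proteins, or secretory cells such as goblet cells, which make mucins and trefoil factors. Factors such as CDX2, HNF4A, FOXA1 and KLF4 help to set these fates. DLD-1 is known for a truncated APC and a mismatch repair defect through MSH6, as background to the levels given below.

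The 4 libraries held about 23300000 fragments in DLD-1, 25300000 in HCT116, 28700000 in SW620 and 29500000 in HCEC-1CT, as read from the step between low values. A 2 kb transcript at 1 FPKM then amounts to 46.7 fragments in DLD-1 and 59.0 in HCEC-1CT. The labelled cell type was checked against markers. The 8 epithelial markers summed to 5531 FPKM in DLD-1 and 7.81 FPKM in HCEC-1CT, where EPCAM, CDH1, KRT19 and KRT20 were listed at 0. The 10 fibroblast markers summed to 1.46 FPKM in DLD-1 and 1147 FPKM in HCEC-1CT. The HCEC-1CT library thus held the defining markers of its labelled cell type at or near 0, apart from KRT8 at 3.10 FPKM and KRT18 at 4.05 FPKM, and all comparisons below carry that contrast. In bulk RNA, fewer cells of a type and less RNA per cell cannot be told apart. Over the 10409 genes at 1 FPKM or more in every library the median log2 ratio was 0.37 in DLD-1, 0.34 in HCT116 and 0.26 in SW620, and the ratios given include that shift. Genes of the mitochondrial genome took 3.42% of the summed FPKM in DLD-1 and 1.79% in HCEC-1CT.

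Of 58740 genes in the table, 18637 reached 1 FPKM in at least 1 of the 4 libraries, and these are the genes measured here. In DLD-1, 1722 of them (9.24%) were 4-fold or more higher than in HCEC-1CT and 1039 (5.57%) were 4-fold or more lower. Scaling the libraries by their median ratio gave 1407 higher and 1284 lower, so the share of higher calls was 62.4% as deposited and 52.3% after scaling. A pseudocount of 0.1 FPKM gave 3378 higher and 1923 lower, and one of 5 FPKM gave 590 and 452. The largest differences were epithelial genes on one side and secreted proteins on the other. CLDN4, a claudin of tight junctions, stood at 284 FPKM in DLD-1, 20.3 in HCT116, 6.93 in SW620 and 0.146 in HCEC-1CT. CD24, a surface glycoprotein, stood at 259 FPKM in DLD-1, 21.99 in HCT116, 143 in SW620 and 0 in HCEC-1CT. PLAT, the tissue plasminogen activator, stood at 0.20 FPKM in DLD-1, 6.60 in HCT116, 0.654 in SW620 and 1347 in HCEC-1CT. CLDN4 and CD24 were highest in DLD-1, and PLAT was under 7 FPKM in every cancer line. Among the 8 largest higher ratios, KRT19, KRT8 and KRT18 were highest in SW620 and the others in DLD-1. KRT19, a keratin with the largest ratio, stood at 1555 FPKM in DLD-1, 567 in HCT116, 1664 in SW620 and 0 in HCEC-1CT.

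**Figure D1:**
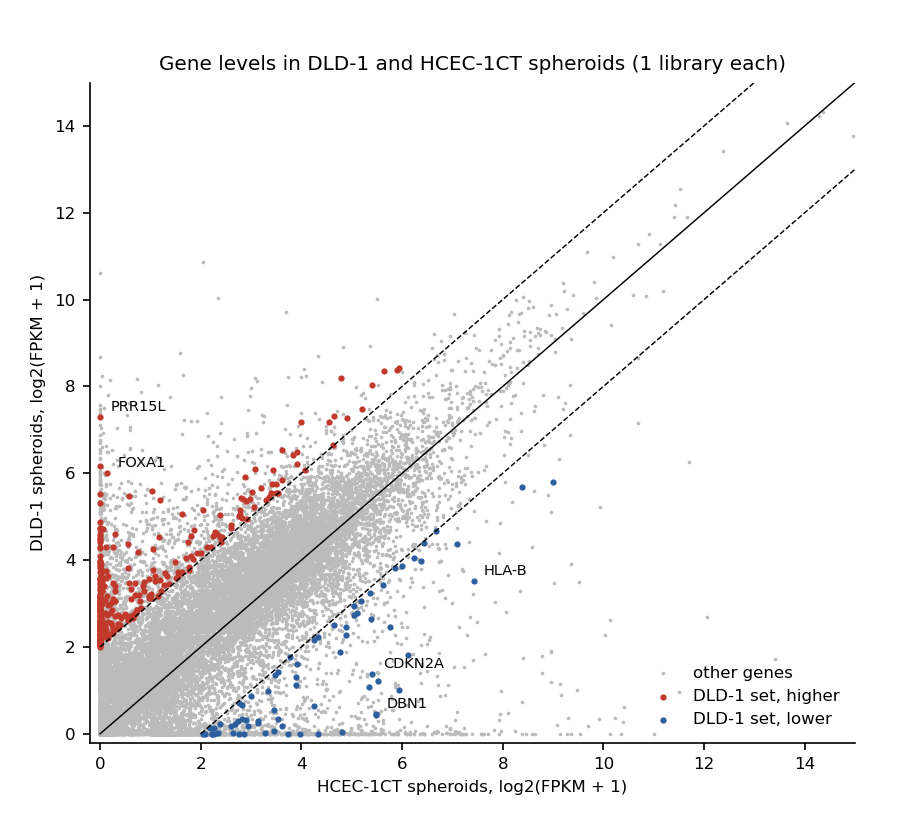
Each point is 1 of the genes measured, with its level in HCEC-1CT spheroids on the x axis and in DLD-1 spheroids on the y axis, both as log2(FPKM + 1); the solid line marks equal levels and the dashed lines 4-fold. Red and blue points are genes, higher and lower, that differed 4-fold in DLD-1 and under 2-fold in HCT116 and SW620 (genes of chromosome Y are not drawn), and many of the red points sit at or near 0 in HCEC-1CT.

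A set of genes that differed from HCEC-1CT in DLD-1 and little in the other cancer lines was then drawn up. It holds the genes 4-fold or more higher or lower in DLD-1 whose ratio was under 2-fold either way in both HCT116 and SW620, and it is called the DLD-1 set. It held 296 genes higher in DLD-1, which is 1.59% of the genes measured, and 71 lower, or 0.381%. The same rule gave 277 higher (1.49%) and 42 lower (0.225%) for HCT116, and 255 higher (1.37%) and 57 lower (0.306%) for SW620. The rule gave sets of like size in every cancer line for the higher direction. These values chose the genes, and all the ratios share the HCEC-1CT library, so the set is a description. Its size and content depend on the pseudocount and the scaling: with 0.1 FPKM it held 400 higher and 130 lower genes, of which 134 and 63 are shared with the set used here, and with 5 FPKM it held 112 higher and 22 lower, with 48 and 18 shared. Median-ratio scaling gave 244 higher and 81 lower, of which 217 of the 296 and 48 of the 71 are shared.

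The higher genes of the set were mostly at or near 0 in HCEC-1CT. Of the 296, 111 were listed at 0 in HCEC-1CT and 213 were under 1 FPKM there. Their median level was 8.20 FPKM in DLD-1, 0.277 in HCT116, 0.462 in SW620 and 0.0795 in HCEC-1CT. The 71 lower genes were mostly in use in the other lines, with medians of 0.977 FPKM in DLD-1, 14.5 in HCT116, 16.0 in SW620 and 14.1 in HCEC-1CT. Of the higher genes 201 (67.9%) were protein coding and of the lower genes 66 (93.0%), beside 73.9% of all genes measured. Against both other cancer lines directly, 175 of the 296 also stood 4-fold higher and 40 of the 71 also stood 4-fold lower. A log2 ratio less than 0.25 past the limit was held by 92 of the higher and 25 of the lower genes.

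**Figure D2:**
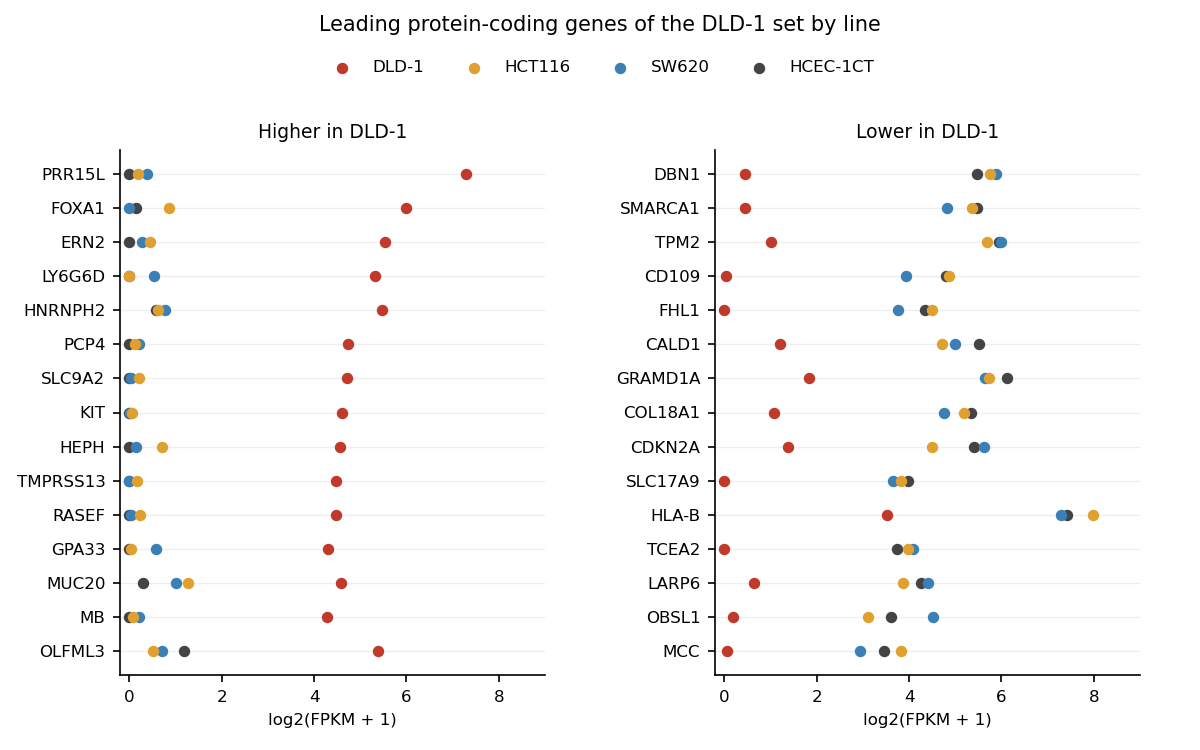
The 15 protein-coding genes of the DLD-1 set with the largest ratio in each direction and at least 10 FPKM in DLD-1 or HCEC-1CT, with log2(FPKM + 1) on the x axis and 1 point per line. On the left DLD-1 lies at 18.6 FPKM or more while the other lines lie at or below 1.41 FPKM, and on the right DLD-1 lies at or below 10.5 FPKM, with HLA-B the highest.

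Several leading genes of the set belong to intestinal and secretory differentiation. FOXA1, a pioneer transcription factor of endoderm-derived epithelia (chromosome 14, 37589984 to 37596059, ENSG00000129514 in hg38), stood at 63.1 FPKM in DLD-1, 0.805 in HCT116, 0 in SW620 and 0.107 in HCEC-1CT, a log2 ratio of 5.85. The other lines were all under 1 FPKM. Its span overlaps the entry of TTC6, which is in the set too and stood at 10.6 FPKM in DLD-1, 0.164 in HCT116, 0.00478 in SW620 and 0.0329 in HCEC-1CT. ERN2, an endoplasmic reticulum stress sensor of mucus-making epithelia, stood at 45.2 FPKM in DLD-1, 0.370 in HCT116, 0.208 in SW620 and 0 in HCEC-1CT. GPA33, a surface antigen of intestinal epithelium, stood at 18.8 FPKM in DLD-1, 0.0278 in HCT116, 0.488 in SW620 and 0 in HCEC-1CT, and LGALS4, the intestinal lectin galectin-4, at 18.8 FPKM in DLD-1, 0.0342 in HCT116, 0.328 in SW620 and 0.0838 in HCEC-1CT. These genes share a level near 0 in the other 3 lines. Among mucin and secretory genes, MUC20 stood at 23.2 FPKM in DLD-1, 1.41 in HCT116, 1.03 in SW620 and 0.234 in HCEC-1CT. MUC5AC, a gel-forming mucin of stomach and airway, stood at 9.34 FPKM in DLD-1, 0.00346 in HCT116, 0.146 in SW620 and 0.00194 in HCEC-1CT. REG4, a secreted lectin of intestinal secretory cells, stood at 7.71 FPKM in DLD-1, 0.156 in HCT116, 0 in SW620 and 0 in HCEC-1CT.

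The longer lists of the same biology were largely higher in DLD-1. Of 36 colonocyte and enterocyte genes 20 were measured, and of these 16 were 2-fold or more higher in DLD-1 and 2 lower, beside 25.9% and 12.9% of all genes measured. The median log2 ratio was 3.51 in DLD-1, 0.04 in HCT116 and 2.11 in SW620, against 0.33 in DLD-1, 0.27 in HCT116 and 0.21 in SW620 over all genes measured. A member passes the filter when any line expresses it, so the members measured lean to the lines that express them. PHGR1, a small protein of gut epithelium, stood at 178 FPKM in DLD-1, 0 in HCT116, 1.80 in SW620 and 0 in HCEC-1CT. CDH17, the intestinal cadherin, stood at 179 FPKM in DLD-1, 0.0833 in HCT116, 20.5 in SW620 and 0.0551 in HCEC-1CT, and CDX2, the master factor of intestinal identity, at 70.8 FPKM in DLD-1, 3.27 in HCT116, 6.04 in SW620 and 0 in HCEC-1CT. All 3 were highest in DLD-1 and near 0 in HCEC-1CT. The 2 that went the other way were peptidases of the brush border. ANPEP stood at 0.0233 FPKM in DLD-1, 0.796 in HCT116, 0.0796 in SW620 and 26.3 in HCEC-1CT, and DPP4 at 1.53 FPKM in DLD-1, 9.02 in HCT116, 0.841 in SW620 and 103 in HCEC-1CT.

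Goblet and secretory genes gave 12 higher and 2 lower of 18 measured members, of 40 listed, beside 25.9% and 12.9% of all genes measured. Their medians were 2.30 in DLD-1, 0.21 in HCT116 and 2.14 in SW620. Of the 18, 14 were under 1 FPKM in HCEC-1CT, so those passed the filter through a cancer line. AGR2, a disulfide isomerase needed for mucin folding, stood at 191 FPKM in DLD-1, 0 in HCT116, 9.42 in SW620 and 0 in HCEC-1CT. The trefoil peptide genes TFF3 and TFF1 were high in both DLD-1 and SW620, with TFF3 at 65.8 FPKM in DLD-1, 0 in HCT116, 186 in SW620 and 0 in HCEC-1CT and TFF1 at 38.9 FPKM in DLD-1, 0 in HCT116, 29.96 in SW620 and 0 in HCEC-1CT. CREB3L1, a secretory pathway factor, went the other way at 0.0470 FPKM in DLD-1, 0.614 in HCT116, 2.96 in SW620 and 8.90 in HCEC-1CT, and so did the membrane mucin MUC12 at 0.282 FPKM in DLD-1, 0.695 in HCT116, 0.00806 in SW620 and 3.95 in HCEC-1CT. The trefoil genes were listed at 0 in HCT116 and HCEC-1CT, and 4 secretory genes, FOXA1, MUC20, MUC5AC and REG4, belong to the DLD-1 set.

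**Figure D3:**
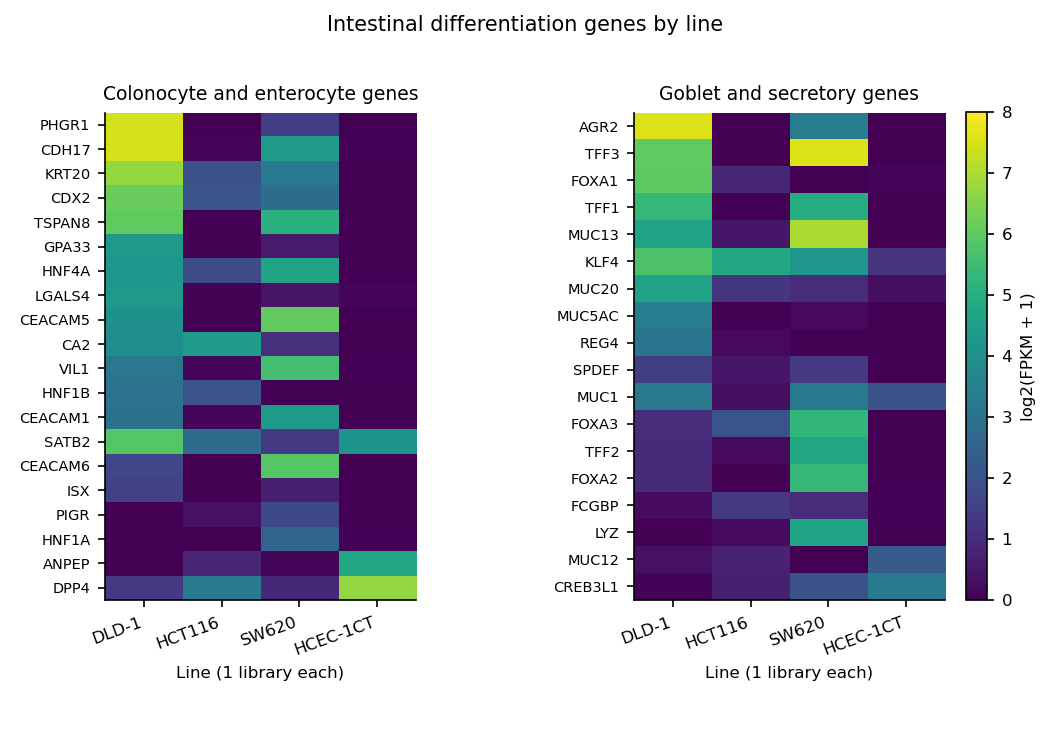
Levels of the 20 colonocyte and enterocyte genes and the 18 goblet and secretory genes measured, as log2(FPKM + 1) in colour, with DLD-1 in the left column and HCEC-1CT in the right column of each panel. Genes run from the highest to the lowest DLD-1 ratio; AGR2, PHGR1 and CDH17 are brightest in DLD-1, while ANPEP and DPP4 are brightest in HCEC-1CT.

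The start regions of the leading set genes with a promoter entry are shown so that their sequence can be read beside their levels. They come from RefSeq (GRCh38.p14), run 5′ to 3′ on the gene's strand from 250 bases before to 50 after the start, and capitals mark each CG pair. FOXA1 and LY6G6D led the higher genes with an entry. FOXA1 (chr14:37595200-37595499, minus strand) holds 34 CG pairs and LY6G6D (chr6:31715098-31715397, plus strand) holds 5.
FOXA1: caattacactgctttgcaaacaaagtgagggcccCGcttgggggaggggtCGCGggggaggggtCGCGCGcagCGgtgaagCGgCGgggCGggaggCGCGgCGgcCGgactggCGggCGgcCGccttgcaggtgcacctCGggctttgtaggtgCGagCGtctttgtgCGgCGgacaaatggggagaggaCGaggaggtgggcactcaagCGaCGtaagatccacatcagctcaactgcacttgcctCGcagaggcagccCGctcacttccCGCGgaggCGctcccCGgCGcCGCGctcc
LY6G6D: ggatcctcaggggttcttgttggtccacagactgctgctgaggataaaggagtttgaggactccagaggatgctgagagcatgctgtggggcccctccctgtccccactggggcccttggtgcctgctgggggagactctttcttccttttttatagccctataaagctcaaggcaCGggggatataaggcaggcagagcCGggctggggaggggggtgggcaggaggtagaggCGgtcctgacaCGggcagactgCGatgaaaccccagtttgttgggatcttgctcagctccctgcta

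Of the 201 protein-coding higher genes, 148 (73.6%) had a promoter entry, which is too few for a comparison over the whole group. LY6G6D, a membrane-anchored protein of the LY6 family, stood at 38.8 FPKM in DLD-1, 0 in HCT116, 0.443 in SW620 and 0 in HCEC-1CT. It lies within the read-through entry LY6G6F-LY6G6D, which stood at 7.85 FPKM in DLD-1, 0.0466 in HCT116, 0.0290 in SW620 and 0 in HCEC-1CT, so the split of reads between the 2 entries is uncertain.

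Other protein-coding genes of the higher set are of varied kinds. KIT, the receptor for stem cell factor (chromosome 4, 54657918 to 54740715, ENSG00000157404 in hg38), stood at 23.5 FPKM in DLD-1, 0.0455 in HCT116, 0.0134 in SW620 and 0 in HCEC-1CT. BTC, the growth factor betacellulin, stood at 5.62 FPKM in DLD-1, 0.839 in HCT116, 0.111 in SW620 and 0.0934 in HCEC-1CT. TMPRSS13, a membrane serine protease, stood at 21.4 FPKM in DLD-1, 0.128 in HCT116, 0 in SW620 and 0 in HCEC-1CT. KIT and TMPRSS13 passed 20 FPKM in DLD-1 and stayed under 0.2 FPKM in the other 3 lines. SLC9A2, a sodium-proton exchanger of gut epithelium, stood at 25.2 FPKM in DLD-1, 0.164 in HCT116, 0.0321 in SW620 and 0 in HCEC-1CT. HEPH, the ferroxidase that works with iron export from enterocytes, stood at 22.7 FPKM in DLD-1, 0.632 in HCT116, 0.105 in SW620 and 0 in HCEC-1CT, and SLC30A10, a manganese exporter, at 3.60 FPKM in DLD-1, 0.0153 in HCT116, 0.771 in SW620 and 0 in HCEC-1CT. RASEF, a small GTPase with calcium-binding EF hands, stood at 21.3 FPKM in DLD-1, 0.176 in HCT116, 0.0249 in SW620 and 0 in HCEC-1CT. PCP4, a calmodulin-binding protein, stood at 25.5 FPKM in DLD-1, 0.0899 in HCT116, 0.156 in SW620 and 0 in HCEC-1CT. MB, the oxygen-binding protein myoglobin, stood at 18.6 FPKM in DLD-1, 0.0660 in HCT116, 0.160 in SW620 and 0 in HCEC-1CT. The last 6 genes were listed at 0 in HCEC-1CT, so no fold is given. The largest protein-coding gene of the set by ratio was PRR15L (chromosome 17, 47951967 to 47959156, ENSG00000167183 in hg38), at 156 FPKM in DLD-1, 0.141 in HCT116, 0.304 in SW620 and 0 in HCEC-1CT. OLFML3, a secreted glycoprotein, stood at 40.8 FPKM in DLD-1, 0.438 in HCT116, 0.626 in SW620 and 1.28 in HCEC-1CT, a log2 ratio of 4.19.

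The wider transport and receptor lists held genes higher in DLD-1 and in other cancer lines as well. Of 28 measured ion channel and solute transport genes 15 were 2-fold higher and 3 lower, with medians of 1.47 in DLD-1, 0.61 in HCT116 and 0.69 in SW620. SCNN1A, a subunit of the epithelial sodium channel, stood at 133 FPKM in DLD-1, 19.5 in HCT116, 66.7 in SW620 and 0.511 in HCEC-1CT, and SLC12A2, the sodium-potassium-chloride cotransporter, at 247 FPKM in DLD-1, 38.7 in HCT116, 36.96 in SW620 and 6.95 in HCEC-1CT. SLCO1B3, an organic anion transporter, stood at 93.3 FPKM in DLD-1, 2.44 in HCT116, 4.27 in SW620 and 0 in HCEC-1CT. Of 32 measured genes of EGFR and MAP kinase signalling 7 were higher and 11 lower, with a median of -0.15 in DLD-1, -0.05 in HCT116 and 0.46 in SW620. Both lists stand beside 25.9% higher and 12.9% lower of all genes measured in DLD-1. ERBB3 and ERBB2, receptors of the EGFR family, stood at 88.5 FPKM in DLD-1, 7.65 in HCT116, 38.4 in SW620 and 0.110 in HCEC-1CT and at 92.97 FPKM in DLD-1, 16.5 in HCT116, 20.6 in SW620 and 8.17 in HCEC-1CT. NRG1, the ligand of ERBB3, was listed at 0 FPKM in DLD-1, 0.154 in HCT116, 0.106 in SW620 and 142 in HCEC-1CT. The 2 receptors were highest in DLD-1, and NRG1 was high in HCEC-1CT alone among the 4 libraries.

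Noncoding and homeobox genes are also among the higher set genes. H19, an imprinted noncoding RNA (chromosome 11, 1995176 to 2001470, ENSG00000130600 in hg38), stood at 70.4 FPKM in DLD-1, 0.869 in HCT116, 0.470 in SW620 and 0 in HCEC-1CT. HOTTIP, a noncoding RNA at the far end of the HOXA cluster, stood at 25.2 FPKM in DLD-1, 0.281 in HCT116, 0.0513 in SW620 and 0.0369 in HCEC-1CT. HOXB-AS3, antisense to the HOXB cluster, stood at 46.9 FPKM in DLD-1, 0.624 in HCT116, 2.50 in SW620 and 1.05 in HCEC-1CT, and LINC02086, which overlaps HOXB7, HOXB8 and HOXB9, at 28.5 FPKM in DLD-1, 0.235 in HCT116, 0.767 in SW620 and 0.000954 in HCEC-1CT. Without stated strand, reads of antisense entries cannot be told apart from those of the genes they overlap. The intergenic RNA LINC02474 stood at 20.2 FPKM in DLD-1, 0.147 in HCT116, 0.0941 in SW620 and 0 in HCEC-1CT. HOX transcription factors themselves set position along the gut. Of 28 measured HOX genes 15 were 2-fold higher and 2 lower in DLD-1, beside 25.9% and 12.9% of all genes measured. Their medians were 1.51 in DLD-1, 0.97 in HCT116 and 1.31 in SW620. HOXB7 stood at 41.9 FPKM in DLD-1, 11.9 in HCT116, 11.9 in SW620 and 5.93 in HCEC-1CT and HOXA5 at 25.9 FPKM in DLD-1, 3.58 in HCT116, 8.02 in SW620 and 5.09 in HCEC-1CT, and both are in the set. HOXB9 stood at 107 FPKM in DLD-1, 6.23 in HCT116, 16.5 in SW620 and 0 in HCEC-1CT, and HOXA13, a factor of the hindgut, at 38.2 FPKM in DLD-1, 3.99 in HCT116, 1.91 in SW620 and 0.444 in HCEC-1CT. HOXB2 went the other way, at 1.11 FPKM in DLD-1, 0.553 in HCT116, 0.956 in SW620 and 14.4 in HCEC-1CT. The DLD-1 ratio of HOXA5 was 2.14 and became 1.78 after median-ratio scaling, which is short of 4-fold.

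Runs of neighbouring set genes were counted where 3 or more followed each other with gaps of at most 200 kb, on the autosomes and chromosome X. A run can thus be longer than 200 kb, and unplaced scaffolds were left out. There were 5 such runs, all in the higher direction, which holds 296 genes of the set beside 71 in the lower. Runs were counted for the DLD-1 set only, so there is no count for the other cancer lines to compare. On chromosome 17 the run from 48549630 to 48707346 held HOXB-AS3, AC103702.1, HOXB7 and LINC02086, and on chromosome 7 the run from 27141052 to 27250493 held HOXA5, AC004080.2, HOTTIP and EVX1. On chromosome 11 the run from 1732410 to 2001470 held IFITM10, AC068580.3, SYT8, H19, RF01972 and RF01973, which overlap H19. The runs on chromosome 6, from 31706904 to 31717918, and on chromosome 9, from 136759634 to 136860799, held 3 and 4 entries. Several of these entries overlap each other, so they are not separate observations.

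Lipid genes differed between DLD-1 and HCEC-1CT in both directions. Of 26 cholesterol synthesis and uptake genes 22 were 2-fold or more higher and 0 lower, with medians of 2.33 in DLD-1, 1.11 in HCT116 and 1.38 in SW620. This and the other lipid lists stand beside 25.9% higher and 12.9% lower of all genes measured in DLD-1. HMGCS1, which makes the precursor of mevalonate, stood at 217 FPKM in DLD-1, 17.5 in HCT116, 21.9 in SW620 and 6.88 in HCEC-1CT. HSD17B7, a sterol reductase and member of the set, stood at 23.99 FPKM in DLD-1, 7.91 in HCT116, 7.32 in SW620 and 3.84 in HCEC-1CT. ACAA2, the mitochondrial thiolase that ends each round of fatty acid oxidation, is also in the set and stood at 144 FPKM in DLD-1, 10.7 in HCT116, 8.88 in SW620 and 14.98 in HCEC-1CT, a log2 ratio of 3.18. The 22 measured genes of fatty acid breakdown had 8 higher and 2 lower and a median of 0.72 in DLD-1, 0.01 in HCT116 and 0.04 in SW620. Fatty acid synthesis and storage genes split, with 12 higher and 6 lower of 29 and a median of 0.92 in DLD-1, 0.65 in HCT116 and 0.06 in SW620. SCD, the desaturase that makes oleate, stood at 1029 FPKM in DLD-1, 113 in HCT116, 267 in SW620 and 44.2 in HCEC-1CT. ME1, a cytosolic source of NADPH and member of the set, stood at 66.97 FPKM in DLD-1, 25.6 in HCT116, 9.74 in SW620 and 15.9 in HCEC-1CT; its ratio of 2.01 became 1.62 after median-ratio scaling. On the other side, ELOVL5, the elongase of polyunsaturated fatty acids, was listed at 0 FPKM in DLD-1, 70.5 in HCT116, 58.8 in SW620 and 25.8 in HCEC-1CT. FADS1, the delta-5 desaturase, stood at 0.808 FPKM in DLD-1, 11.2 in HCT116, 22.2 in SW620 and 35.99 in HCEC-1CT, and PLIN2, which coats lipid droplets, at 0.665 FPKM in DLD-1, 10.5 in HCT116, 119.8 in SW620 and 333 in HCEC-1CT. ELOVL5 and FADS1, enzymes of the polyunsaturated route, and PLIN2 were all under 1 FPKM in DLD-1 and above 10 FPKM in the other 3 lines.

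Redox and drug-metabolising enzymes gave further set members. Of 28 measured xenobiotic enzymes 15 were higher and 7 lower, beside 25.9% and 12.9% of all genes measured. Their medians were 1.31 in DLD-1, 0.25 in HCT116 and 0.83 in SW620. UGT1A6, which conjugates phenols with glucuronic acid, stood at 14.5 FPKM in DLD-1, 0.0159 in HCT116, 0.116 in SW620 and 0 in HCEC-1CT; it shares its 3′ exons with other UGT1A genes, so its value is uncertain. SULT1C2, a sulfotransferase, stood at 5.47 FPKM in DLD-1, 0.373 in HCT116, 0.617 in SW620 and 0.0120 in HCEC-1CT. AKR1B1, aldose reductase, went the other way at 1.20 FPKM in DLD-1, 68.2 in HCT116, 122 in SW620 and 566 in HCEC-1CT. PRDX2, a peroxiredoxin, stood at 179 FPKM in DLD-1, 68.99 in HCT116, 66.6 in SW620 and 35.9 in HCEC-1CT, and MGST2, a microsomal glutathione transferase, at 15.6 FPKM in DLD-1, 4.47 in HCT116, 4.23 in SW620 and 2.27 in HCEC-1CT. Both are in the set with modest ratios of 2.28 and 2.34, and that of PRDX2 became 1.88 after median-ratio scaling. SOD2, the mitochondrial superoxide dismutase, stood at 5.14 FPKM in DLD-1, 12.1 in HCT116, 8.15 in SW620 and 1128 in HCEC-1CT. Of the 28 redox genes measured 14 were higher and 5 lower, with medians of 0.96 in DLD-1, 0.61 in HCT116 and 0.76 in SW620.

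One leading entry of the set depends on how reads were assigned. HNRNPH2, a splicing regulator on chromosome X, stood at 43.5 FPKM in DLD-1, 0.551 in HCT116, 0.722 in SW620 and 0.492 in HCEC-1CT. The read-through entry RPL36A-HNRNPH2, which shares its exon, stood at 0.715 FPKM in DLD-1, 22.4 in HCT116, 39.6 in SW620 and 17.2 in HCEC-1CT. Summed, the 2 entries stood at 44.3 FPKM in DLD-1, 22.998 in HCT116, 40.4 in SW620 and 17.7 in HCEC-1CT. The sum in SW620 was close to that in DLD-1, and the 4-fold call rests on the split between the entries.

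The lower direction of the set had DBN1 and SMARCA1 as its largest ratios, and several of its leading genes encode proteins of the actin cytoskeleton. DBN1, drebrin, which binds and bundles actin (chromosome 5, 177456608 to 177474401, ENSG00000113758 in hg38), stood at 0.357 FPKM in DLD-1, 53.3 in HCT116, 57.96 in SW620 and 43.6 in HCEC-1CT, a log2 ratio of -5.04. TPM2, beta-tropomyosin, stood at 1.01 FPKM in DLD-1, 50.4 in HCT116, 62.6 in SW620 and 60.6 in HCEC-1CT, and CALD1, caldesmon, at 1.31 FPKM in DLD-1, 25.4 in HCT116, 30.8 in SW620 and 44.8 in HCEC-1CT. FHL1, a LIM-domain protein of muscle and stroma, was listed at 0 FPKM in DLD-1, 21.7 in HCT116, 12.5 in SW620 and 19.2 in HCEC-1CT. DLD-1 stood under 1.4 FPKM in all 4, while the other lines, including both other carcinoma lines, stood above 12 FPKM. OBSL1, a cytoskeletal adaptor, stood at 0.134 FPKM in DLD-1, 7.69 in HCT116, 21.96 in SW620 and 11.2 in HCEC-1CT.

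Matrix, protease inhibitor and growth factor genes are also among the lower set genes. COL18A1, collagen XVIII of basement membranes, stood at 1.11 FPKM in DLD-1, 35.7 in HCT116, 26.2 in SW620 and 39.8 in HCEC-1CT. LARP6, which binds collagen messenger RNAs, stood at 0.560 FPKM in DLD-1, 13.6 in HCT116, 20.3 in SW620 and 18.1 in HCEC-1CT. CD109, a surface protein that binds TGF-beta, stood at 0.0341 FPKM in DLD-1, 28.4 in HCT116, 14.2 in SW620 and 26.9 in HCEC-1CT. TGFB1, the ligand itself, stood at 14.9 FPKM in DLD-1, 61.7 in HCT116, 55.4 in SW620 and 81.9 in HCEC-1CT. The protease inhibitors SERPINE2 and TIMP2 stood at 19.8 FPKM in DLD-1, 115 in HCT116, 76.9 in SW620 and 135 in HCEC-1CT and at 5.84 FPKM in DLD-1, 18.9 in HCT116, 19.00 in SW620 and 33.5 in HCEC-1CT. Each was at least 3-fold lower in DLD-1 than in HCT116 and SW620 by these FPKM values. The inhibitor TIMP4 is in the higher direction of the set, at 8.16 FPKM in DLD-1, 0.0228 in HCT116, 0.198 in SW620 and 0.613 in HCEC-1CT. TIMP2 overlaps the noncoding entry AC022966.1, the only entry of the lower direction that is not protein coding and reached 10 FPKM, at 3.48 FPKM in DLD-1, 16.7 in HCT116, 11.03 in SW620 and 17.9 in HCEC-1CT.

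The mesenchymal transition and the collagen and matrix lists had medians below 0 in all 3 cancer lines, lowest in DLD-1. The mesenchymal transition list had 29 measured genes, 25 of them lower by at least 2-fold in DLD-1 and 1, S100A4, higher, with medians of -4.42 in DLD-1, -3.47 in HCT116 and -2.58 in SW620. Of 37 collagen and matrix genes 29 were lower and 5 higher, with medians of -4.79 in DLD-1, -3.10 in HCT116 and -3.48 in SW620. Both lists stand beside 25.9% higher and 12.9% lower of all genes measured in DLD-1. COL6A2 and COL6A1, chains of collagen VI, stood at 0 FPKM in DLD-1, 70.2 in HCT116, 12.95 in SW620 and 655 in HCEC-1CT and at 0.149 FPKM in DLD-1, 68.8 in HCT116, 50.1 in SW620 and 539 in HCEC-1CT. The higher ones included COL17A1, a hemidesmosome collagen, and the laminin chains LAMA3, LAMA5 and LAMB3. COL17A1 stood at 20.4 FPKM in DLD-1, 2.04 in HCT116, 1.82 in SW620 and 0 in HCEC-1CT and LAMB3 at 91.9 FPKM in DLD-1, 82.7 in HCT116, 228 in SW620 and 27.5 in HCEC-1CT. The fibroblast markers were lower as well. All 10 were 2-fold or more lower in DLD-1, and COL1A2, COL3A1, DCN and LUM were listed at 0 there. COL1A2 and COL3A1 are also members of the collagen and matrix list, so the lists are not separate observations. The part of the fibroblast markers in the result was not tested.

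Regulators of chromatin, cell cycle and Wnt signalling were also among the lower genes. SMARCA1, an ISWI-type chromatin remodeller (chromosome X, 129446501 to 129523500, ENSG00000102038 in hg38), stood at 0.370 FPKM in DLD-1, 40.1 in HCT116, 27.3 in SW620 and 43.4 in HCEC-1CT, a log2 ratio of -5.02. CDKN2A, which encodes p16 and ARF and restrains the cell cycle (chromosome 9, 21967753 to 22009272, ENSG00000147889), stood at 1.59 FPKM in DLD-1, 21.7 in HCT116, 48.1 in SW620 and 41.6 in HCEC-1CT, a log2 ratio of -4.04; its span overlaps CDKN2B and CDKN2B-AS1. MCC, a Wnt antagonist named for its mutation in colorectal cancers, stood at 0.0467 FPKM in DLD-1, 13.1 in HCT116, 6.71 in SW620 and 10.00 in HCEC-1CT. The other 3 lines carried 6 FPKM or more of each of these 3 genes. TCEA2, a transcription elongation factor, was listed at 0 FPKM in DLD-1, 14.6 in HCT116, 16.03 in SW620 and 12.3 in HCEC-1CT. SLC17A9, a vesicular ATP transporter, was listed at 0 FPKM in DLD-1, 13.2 in HCT116, 11.5 in SW620 and 14.7 in HCEC-1CT, and GRAMD1A, which moves cholesterol at membrane contacts, stood at 2.54 FPKM in DLD-1, 52.2 in HCT116, 48.9 in SW620 and 68.3 in HCEC-1CT.

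The start regions of the leading lower genes are given in the same form from RefSeq (GRCh38.p14). DBN1 (chr5:177473585-177473884, minus strand) holds 41 CG pairs and SMARCA1 (chrX:129523441-129523740, minus strand) holds 17.
DBN1: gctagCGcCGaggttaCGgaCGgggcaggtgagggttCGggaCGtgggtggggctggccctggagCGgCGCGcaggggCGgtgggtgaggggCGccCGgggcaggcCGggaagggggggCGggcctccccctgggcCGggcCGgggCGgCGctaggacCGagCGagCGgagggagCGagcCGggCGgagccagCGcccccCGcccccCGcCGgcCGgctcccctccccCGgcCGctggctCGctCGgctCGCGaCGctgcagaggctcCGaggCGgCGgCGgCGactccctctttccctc
SMARCA1: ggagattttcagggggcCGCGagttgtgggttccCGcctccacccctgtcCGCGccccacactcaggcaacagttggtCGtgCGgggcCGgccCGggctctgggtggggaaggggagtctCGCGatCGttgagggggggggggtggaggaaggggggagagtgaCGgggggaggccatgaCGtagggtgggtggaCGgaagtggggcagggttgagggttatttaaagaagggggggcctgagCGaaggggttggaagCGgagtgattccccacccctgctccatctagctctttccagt

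Over the 54 of 66 protein-coding lower genes (81.8%) with an entry, the median was 28 CG pairs with quartiles of 17.5 and 33. All protein-coding genes measured, of which 11047 of 13776 (80.2%) had an entry, had a median of 26 and quartiles of 17 and 34.

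HLA-B and ERAP2 are the antigen presentation genes of the set, in opposite directions. HLA-B, which presents peptides to T cells, stood at 10.5 FPKM in DLD-1, 253 in HCT116, 156 in SW620 and 171 in HCEC-1CT, a log2 ratio of -3.91. Its near-identical copies among HLA genes make the value uncertain. B2M, the light chain shared by class I molecules, stood at 44.1 FPKM in DLD-1, 146 in HCT116, 292 in SW620 and 479 in HCEC-1CT. B2M-204, annotated as protein coding and the main transcript in HCEC-1CT, held 4.99% of that in DLD-1, 57.9% in HCT116, 60.9% in SW620 and 71.5% in HCEC-1CT. B2M-203, of 407 bases and annotated for nonsense-mediated decay, held 53.1% in DLD-1 and 0% in the other lines. Further B2M transcripts, not given here, held the rest in each line. That split depends on how reads were assigned. ERAP2, a peptidase that trims peptides for class I, stood at 22.3 FPKM in DLD-1, 0.140 in HCT116, 1.02 in SW620 and 1.27 in HCEC-1CT. Of 26 measured genes 13 were 2-fold or more lower in DLD-1 and 1 higher, with medians of -0.91 in DLD-1, -0.41 in HCT116 and 0.07 in SW620. In HCT116 8 were lower and 6 higher, beside 13.1% and 26.9% of all genes measured, and in SW620 4 were lower and 2 higher, beside 14.1% and 24.8%. Of 38 interferon response genes 9 were higher and 8 lower in DLD-1, beside 25.9% and 12.9% of all genes measured. The higher share was near that of all genes, and the lower share was above it. OAS1, a sensor of double-stranded RNA, stood at 51.5 FPKM in DLD-1, 0.636 in HCT116, 31.02 in SW620 and 0.0831 in HCEC-1CT.

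Death receptor and apoptosis genes gave 3 set members of 28 measured, 2 higher and 1 lower, beside 1.59% and 0.381% of all genes measured. CASP10, an initiator caspase, stood at 12.8 FPKM in DLD-1, 1.98 in HCT116, 0.829 in SW620 and 1.08 in HCEC-1CT, and BCL2L14, a BCL2 relative, at 7.09 FPKM in DLD-1, 0.246 in HCT116, 0.444 in SW620 and 0 in HCEC-1CT. TNFRSF10D, a decoy receptor for TRAIL, stood at 13.6 FPKM in DLD-1, 54.9 in HCT116, 36.1 in SW620 and 62.7 in HCEC-1CT. The list gave 10 higher and 6 lower by 2-fold in DLD-1, beside 25.9% and 12.9% of all genes measured. Its median was 0.05 in DLD-1, and it became -0.32 after median-ratio scaling.

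A total of 3 genes were 4-fold lower in DLD-1 and 4-fold higher in both other cancer lines, and 0 genes showed the reverse. AKAP12, a scaffold for protein kinase A, stood at 0.498 FPKM in DLD-1, 221 in HCT116, 129 in SW620 and 14.8 in HCEC-1CT. DMKN, a secreted epidermal protein, was listed at 0 FPKM in DLD-1, 39.5 in HCT116, 47.03 in SW620 and 3.27 in HCEC-1CT. Both were under 0.5 FPKM in DLD-1 and above 39 FPKM in HCT116 and SW620. MT-ND4, a subunit of respiratory complex I, stood at 99.5 FPKM in DLD-1, 8027 in HCT116, 2544 in SW620 and 451 in HCEC-1CT. Its locus in the table spans much of the mitochondrial genome, and the other 12 mitochondrial messenger RNAs included 7 that were 2-fold higher and 0 that were lower in DLD-1. Over all genes measured 25.9% were higher and 12.9% lower.

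Proliferation and repair genes were higher in DLD-1. In the cell cycle list of 46 genes, 42 were higher by at least 2-fold and 1, CCND2, was lower, with medians of 3.29 in DLD-1, 2.36 in HCT116 and 1.65 in SW620. Of the 46, 30 were under 1 FPKM in HCEC-1CT, so those passed the filter through a cancer line. This list and that of DNA repair stand beside 25.9% higher and 12.9% lower of all genes measured in DLD-1. RRM2, a subunit of ribonucleotide reductase, stood at 48.3 FPKM in DLD-1, 12.2 in HCT116, 9.92 in SW620 and 0.951 in HCEC-1CT, and CDC20, an activator of the mitotic ubiquitin ligase, at 35.9 FPKM in DLD-1, 30.7 in HCT116, 11.3 in SW620 and 0.573 in HCEC-1CT. Of 38 DNA repair genes 24 were higher and 1, ERCC1, lower, with medians of 1.36 in DLD-1, 1.32 in HCT116 and 0.77 in SW620. The repair nuclease gene EXO1 stood at 9.19 FPKM in DLD-1, 4.0 in HCT116, 2.42 in SW620 and 0.0872 in HCEC-1CT, and ERCC1, of nucleotide excision repair, at 8.79 FPKM in DLD-1, 34.02 in HCT116, 33.9 in SW620 and 30.4 in HCEC-1CT. CDKN1A, which encodes the CDK inhibitor p21, stood at 59.3 FPKM in DLD-1, 97.5 in HCT116, 23.9 in SW620 and 142 in HCEC-1CT, and PLK3, a stress kinase of the set, at 4.71 FPKM in DLD-1, 27.5 in HCT116, 20.8 in SW620 and 24.1 in HCEC-1CT.

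MSH6, a mismatch repair gene, stood at 5.61 FPKM in DLD-1, 8.16 in HCT116, 13.9 in SW620 and 5.54 in HCEC-1CT, and the DLD-1 level was close to that of HCEC-1CT. PMS2, another mismatch repair gene, stood at 11.4 FPKM in DLD-1, 8.42 in HCT116, 4.26 in SW620 and 4.17 in HCEC-1CT, and DLD-1 had the highest value of the 4 lines. Among driver genes, APC stood at 8.64 FPKM in DLD-1, 9.61 in HCT116, 6.58 in SW620 and 5.74 in HCEC-1CT and CTNNB1, beta-catenin, at 111 FPKM in DLD-1, 50.8 in HCT116, 141 in SW620 and 61.3 in HCEC-1CT. PIK3CA stood at 8.46 FPKM in DLD-1, 4.77 in HCT116, 5.52 in SW620 and 11.5 in HCEC-1CT and SMAD4 at 43.8 FPKM in DLD-1, 30.9 in HCT116, 0.156 in SW620 and 30.8 in HCEC-1CT. For APC, CTNNB1 and PIK3CA the DLD-1 level lay between the lowest and highest of the other lines, and SMAD4 was near 0 in SW620. Of the immortalisation genes, CDK4 stood at 29.2 FPKM in DLD-1, 26.1 in HCT116, 21.3 in SW620 and 33.1 in HCEC-1CT and TERT at 1.09 FPKM in DLD-1, 0.611 in HCT116, 0.171 in SW620 and 2.83 in HCEC-1CT.

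Wnt targets gave 18 higher and 0 lower of 28 measured, with medians of 1.75 in DLD-1, 1.29 in HCT116 and 2.73 in SW620. In HCEC-1CT 18 of the 28 were under 1 FPKM, so those passed the filter through a cancer line. AXIN2, which feeds back to restrain Wnt signalling, stood at 234 FPKM in DLD-1, 8.16 in HCT116, 55.4 in SW620 and 0.767 in HCEC-1CT, and the stem cell factor ASCL2 at 117 FPKM in DLD-1, 0 in HCT116, 43.7 in SW620 and 0 in HCEC-1CT. TDGF1, a NODAL co-receptor, is the set member of this list and stood at 3.15 FPKM in DLD-1, 0.0157 in HCT116, 0.590 in SW620 and 0 in HCEC-1CT. Both AXIN2 and ASCL2 were highest in DLD-1, while the list's median was highest in SW620. Of 35 TGF-beta and BMP genes 9 were higher and 13 lower in DLD-1, with medians of -0.35 in DLD-1, -0.39 in HCT116 and -0.53 in SW620. Over all genes measured 25.9% were higher and 12.9% lower in DLD-1. The higher share of the TGF-beta and BMP list was near that of all genes, and its lower share was above it. Inside that list ID1, ID2 and ID3, targets of BMP signalling, were all higher in DLD-1, with ID2 at 121 FPKM in DLD-1, 28.2 in HCT116, 12.8 in SW620 and 6.57 in HCEC-1CT and ID3 at 164 FPKM in DLD-1, 78.5 in HCT116, 1.28 in SW620 and 27.5 in HCEC-1CT. Of 19 Notch genes 9 were higher and 2 lower, with medians of 0.63 in DLD-1, 1.99 in HCT116 and 1.14 in SW620, and LFNG, which glycosylates Notch, stood at 19.5 FPKM in DLD-1, 4.72 in HCT116, 9.18 in SW620 and 0.137 in HCEC-1CT.

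Of 28 measured claudin and junction genes 21 were 2-fold or more higher and 1, CLDN14, lower, and of 14 keratins 9 were higher and 0 lower. In HCEC-1CT 16 of the 28 and 11 of the 14 were under 1 FPKM, so those passed the filter through a cancer line. The keratin medians were 3.06 in DLD-1, 1.99 in HCT116 and 4.42 in SW620. Each list here is to be read beside the 25.9% higher and 12.9% lower of all genes measured in DLD-1. Glycosyltransferases, which build mucin and surface sugars, gave 15 higher and 2 lower of 29, with medians of 1.07 in DLD-1, 0.25 in HCT116 and 1.21 in SW620. FUT3, the Lewis fucosyltransferase, stood at 22.2 FPKM in DLD-1, 0.615 in HCT116, 1.30 in SW620 and 0.0393 in HCEC-1CT. Of 30 integrins and adhesion genes 12 were higher and 11 lower, with TSPAN1, a tetraspanin, at 288 FPKM in DLD-1, 2.52 in HCT116, 44.2 in SW620 and 0.664 in HCEC-1CT and the integrin ITGB3 at 0.0214 FPKM in DLD-1, 0.590 in HCT116, 0.0254 in SW620 and 30.2 in HCEC-1CT. Proteases and their inhibitors also split, with 14 higher and 17 lower of 35. The higher ones include the serine protease PRSS23, at 161 FPKM in DLD-1, 4.84 in HCT116, 13.1 in SW620 and 0.453 in HCEC-1CT. The membrane protease TMPRSS4 stood at 22.02 FPKM in DLD-1, 0.258 in HCT116, 1.13 in SW620 and 0 in HCEC-1CT. The inhibitor SPINT1 stood at 196 FPKM in DLD-1, 50.7 in HCT116, 58.8 in SW620 and 0.480 in HCEC-1CT. The lower ones include secreted matrix proteases such as MMP1, at 0.130 FPKM in DLD-1, 0.220 in HCT116, 0 in SW620 and 829 in HCEC-1CT. Cytokines and NF-kB targets gave 31 lower and 3 higher of 35, the 3 being CCL28, CXCL16 and IL18. IL18, an epithelial cytokine, stood at 16.6 FPKM in DLD-1, 28.5 in HCT116, 0.846 in SW620 and 0 in HCEC-1CT.

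The unfolded protein and amino acid response list had 14 lower and 5 higher of 28, with medians of -1.12 in DLD-1, -0.34 in HCT116 and -0.29 in SW620. HSPA5, the main chaperone of the endoplasmic reticulum, stood at 117 FPKM in DLD-1, 367 in HCT116, 210.3 in SW620 and 646 in HCEC-1CT, and the 5 higher genes, ASNS, CTH, PSAT1, PSPH and TRIB3, include enzymes of amino acid synthesis. Hypoxia genes gave 9 lower and 4 higher of 26, beside 12.9% and 25.9% of all genes measured. Their medians were -0.36 in DLD-1, -1.29 in HCT116 and -0.55 in SW620. STC2, a secreted glycoprotein, was listed at 0 FPKM in DLD-1, 26.4 in HCT116, 12.3 in SW620 and 95.1 in HCEC-1CT, while EGLN3, an oxygen-sensing hydroxylase, stood at 91.2 FPKM in DLD-1, 6.84 in HCT116, 89.96 in SW620 and 0.789 in HCEC-1CT. Among 28 glycolysis genes 12 were higher and 2 lower, with SLC2A1, the glucose transporter GLUT1, at 489 FPKM in DLD-1, 179 in HCT116, 1129 in SW620 and 39.95 in HCEC-1CT and SLC2A3, GLUT3, at 0.819 FPKM in DLD-1, 19.4 in HCT116, 173 in SW620 and 53.8 in HCEC-1CT. DLD-1 had more GLUT1 and less GLUT3 transcript than HCEC-1CT. Immediate early and dissociation genes gave 7 higher and 8 lower of 23, beside 25.9% and 12.9% of all genes measured. The part of handling in their levels was not tested.

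Genes used as a check on the libraries were set beside the median of 0.33 over all genes measured in DLD-1. The 40 ribosomal protein genes had a median of 0.43 in DLD-1, 1.36 in HCT116 and 0.62 in SW620, and the DLD-1 value became 0.02 after median-ratio scaling. The 25 housekeeping genes had a median of 0.45 in DLD-1, which became 0.04. The 13 mitochondrial messenger RNAs had medians of 1.03 in DLD-1, 3.51 in HCT116 and 1.66 in SW620. Of the markers of other cell types, 3 endothelial, 3 immune, 3 smooth muscle, 1 neural and 0 adipocyte genes were measured. Those lists summed to at most 2.56 FPKM in DLD-1 and no more than 17 FPKM in HCEC-1CT, apart from the neural list, where TUBB3 stood at 26.6 FPKM in DLD-1, 21.7 in HCT116, 8.44 in SW620 and 6.82 in HCEC-1CT.

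**Figure D4:**
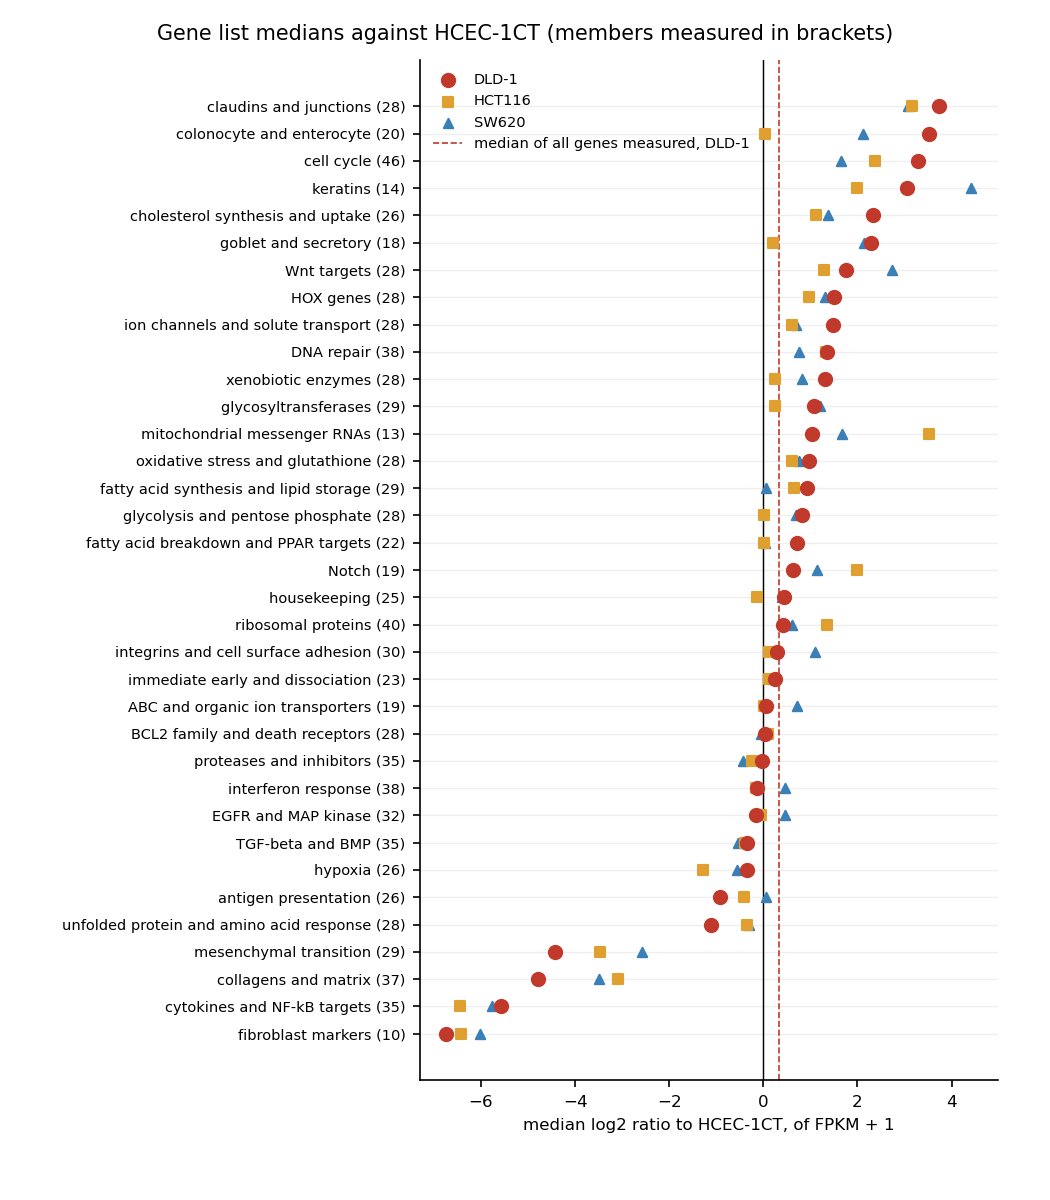
Median log2 ratio to HCEC-1CT of the gene lists with at least 10 measured members, apart from 2 that are not reported here, with circles for DLD-1, squares for HCT116 and triangles for SW620; the dashed line marks the DLD-1 median over all genes measured, 0.33. Junction, colonocyte and cell cycle lists lie highest in DLD-1, and fibroblast, cytokine and matrix lists lowest.

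Transcript use was compared in genes with at least 5 summed FPKM in every library. Of the 54013 transcripts at 1 FPKM or more in any library, 3718 (6.88%) were 4-fold higher and 2579 (4.77%) 4-fold lower in DLD-1. A switch was counted where HCT116 and SW620 kept the main transcript of HCEC-1CT, DLD-1 used another, and the HCEC-1CT main transcript dropped by 50 percentage points or more of the summed FPKM. DLD-1 had 84 switches among 5879 genes (1.43%), beside 68 (1.16%) for HCT116 and 60 (1.02%) for SW620 by the same rule. Of the 84 genes 9 also differed 4-fold in total level, beside 9.24% higher and 5.57% lower of all genes measured. In the DLD-1 set were 5 of the 84, beside 1.59% higher and 0.381% lower of all genes measured. A total short of 4-fold was not always similar, as DIAPH1 stood at 39.0 FPKM in DLD-1 and 14.1 FPKM in HCEC-1CT. Both transcripts were annotated in 79 genes, and in 27 their starts lay over 500 bases apart. Both were protein coding in 62, and in 16 the DLD-1 main transcript was not. Estimates for transcripts that share most of their exons depend on the authors' assignment of reads.

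The largest losses were near complete. In DUSP14, a MAP kinase phosphatase, transcript DUSP14-206 held 0% of the total in DLD-1, 96.6% in HCT116, 94.3% in SW620 and 97.0% in HCEC-1CT. DLD-1 used DUSP14-205, whose start lies 20048 bases away, and its gene total was 7.39 FPKM in DLD-1 and 15.6 FPKM in HCEC-1CT. In SNX12, a sorting nexin, SNX12-202 held 1.84% in DLD-1, 92.4% in HCT116, 99.1% in SW620 and 95.2% in HCEC-1CT, and DLD-1 used SNX12-207 with a start 5003 bases away. TAB2, an adaptor of the TAK1 kinase, had its main HCEC-1CT transcript TAB2-209 at 0.0973% in DLD-1, 92.5% in HCT116, 89.0% in SW620 and 87.8% in HCEC-1CT. Its DLD-1 transcript TAB2-205 starts 25037 bases away. These 3 genes changed the start as well as the transcript. DIAPH1, a formin that builds actin filaments, showed a swap with no change of start, since DIAPH1-202 held 0% in DLD-1, 88.1% in HCT116, 92.7% in SW620 and 88.5% in HCEC-1CT. The annotated lengths of its 2 transcripts are 5789 bases for DIAPH1-201 of DLD-1 and 5795 bases for DIAPH1-202. In RAD23B, a DNA damage recognition factor, RAD23B-201 held 12.0% in DLD-1, 96.1% in HCT116, 98.5% in SW620 and 98.3% in HCEC-1CT. SCAF1, PAPD5 and PTMS completed the 8 largest losses. In SCAF1 the DLD-1 main transcript is an assembled one without a reference name. In PAPD5, DLD-1 mainly used PAPD5-204, which is annotated as not coding for protein, and PAPD5-202 held 5.83% in DLD-1, 56.8% in HCT116, 94.9% in SW620 and 98.0% in HCEC-1CT.

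**Figure D5:**
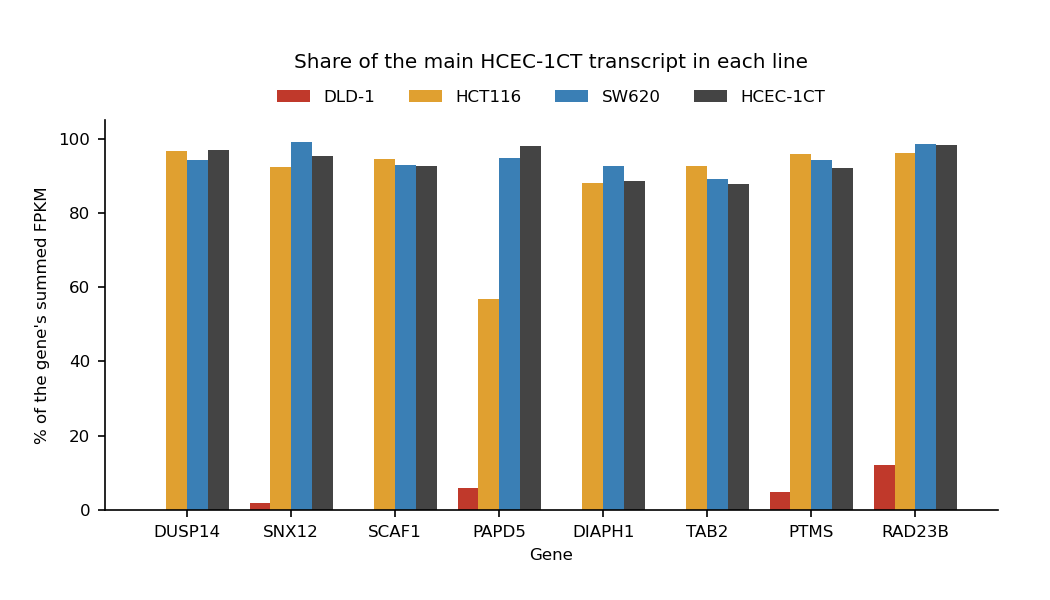
Share of each gene's summed FPKM held by the main HCEC-1CT transcript in the 8 switches with the largest loss, with bars in the order DLD-1, HCT116, SW620 and HCEC-1CT for each gene. The DLD-1 bars lie at 12.0% or less, and the others at 56.8% or more.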

How the data were processed

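RNA sequencing values of DLD-1, HCT116, SW620 and HCEC-1CT spheroids were used, with 1 library per line. The authors deposited FPKM per gene and per transcript. HISAT2 and FastQC were run with hg38, per the submitters' processing notes; the FPKM program, its annotation, the strandedness and the RNA selection are each not given in the sources used here. Both tables also hold 1 column that could be tied to no labelled sample, and it was left out. Of 58740 gene IDs 58275 matched GENCODE 29 (GRCh38), 96.8% of them with equal coordinates, and gene types and transcript lengths came from it. Gene values equal the sum of their transcripts to within 0.00220 FPKM.

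Depth was read from genes with a single transcript, where FPKM multiplied by length gathers at whole steps. In each library 206 to 223 values lay within 0.02 of 2 steps, against 11 to 16 at 0.25 steps beyond. At the same FPKM an entry shorter than 2 kb rests on proportionally fewer fragments, so short noncoding entries are the least precise. No significance test was run.

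From the deposited FPKM, log2 ratios with a pseudocount of 1 were computed in Python 3.11.15 (pandas 2.3.3, NumPy 2.4.6, matplotlib 3.10.9), which understates the change of low genes. Genes with 1 FPKM in at least 1 library were measured; calls were 4-fold, and lists were counted at 2-fold. The alternatives were other pseudocounts (0.1 and 5), 2 other scalings, other filters and other limits.

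The named genes were, per direction, the 15 coding and 5 other genes of the DLD-1 set with the largest ratio and at least 10 FPKM, and the 8 largest ratios. Further named genes were, per list, the 4 largest ratios, set members and members past 2-fold the other way; the genes opposite in DLD-1; the 8 largest switches; and 12 driver, repair and immortalisation genes. TTC6 and the read-through entries were named after their values were seen, because they overlap named genes. Some genes the rule gives are not reported here. The comparison and the 44 lists, of 1188 entries (3 without a gene of that symbol), were chosen with earlier results of these data known. Promoter sequences are from RefSeq (GRCh38.p14).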

Additional observations from a re-analysis of the deposited data

Results flagged for a closer look

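Genes whose ratio to HCEC-1CT went one way in DLD-1 and the opposite way in the other cancer lines, by 4-fold or more in each, were looked at again. The difference between lines was not tested, since each line has 1 library and all ratios share that of HCEC-1CT. AKAP12 had log2 ratios of -3.40 in DLD-1, 3.81 in HCT116 and 3.04 in SW620. MT-ND4 had -2.17 in DLD-1, 4.15 in HCT116 and 2.49 in SW620, and its locus in the table, from 5904 to 15887 of the mitochondrial genome, covers other genes. DMKN had -2.09 in DLD-1, 3.25 in HCT116 and 3.49 in SW620, with DLD-1 listed at 0.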

How the results depend on the processing

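No paired analysis was possible because each line has 1 library. Genes 4-fold higher and lower in DLD-1 numbered 3378 and 1923 with a pseudocount of 0.1, 590 and 452 with 5, and 774 and 561 at 8-fold. The DLD-1 set numbered 130 lower with 0.1, 112 and 22 with 5, and 80 and 19 at 8-fold. Allowing the other cancer lines up to 4-fold gave 740 and 220, and up to 1.5-fold 181 and 29. Switches numbered 147 with 1 summed FPKM, 45 with 10 and 161 with a loss of 30 points. The causes were not tested. Of 240 named genes that passed 4-fold, 7 fell short of 4-fold with median-ratio scaling, 1 with scaling to the protein-coding total and 61 with a pseudocount of 5. A pseudocount cannot reverse the direction of a ratio, so direction is no check on that setting. List medians moved by 0.5 or more in 18 of 43 lists with each other pseudocount.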
